A study of Drosophila melanogaster with 34 samples.

Results

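Invader elements are a family of LTR retrotransposons of Drosophila, and 5 of its entries, INVADER2, INVADER3, INVADER4, INVADER5 and INVADER6, are described here out of the 129 transposon consensus sequences that were measured. The members were chosen by name and not by any measured value, though with earlier results of these data known. A consensus stands for all copies of an element in the genome, so its value cannot be assigned to a single insertion, and reads that match more than 1 related consensus could have been counted for either. A consensus has no single genomic position, and no coordinates are given. INVADER1, the only other entry of that name, lay outside the 5 and is quoted beside them where it helps to place them.

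The measurements came from ovarian somatic cells (OSC), a cultured Drosophila cell line derived from somatic cells of the ovary. All cells were transfected with siRNA: against EGFP in the control (Control-KD), against Piwi (Piwi-KD), against the linker histone H1 (H1-KD), against heterochromatin protein HP1a (HP1a-KD) or against Maelstrom (Mael-KD). The 34 samples fell into 25 groups by assay and knockdown, and the tables hold 29 columns. Poly(A)+ RNA was measured in Control-KD, Piwi-KD and H1-KD, and small RNA bound to Piwi in Control-KD and H1-KD. ATAC-seq, which reads open chromatin, was made in all 5 conditions from 10 samples, with 1 deposited column per condition. ChIP for the heterochromatin mark H3K9me3 and for HP1a was made in Control-KD, Piwi-KD and H1-KD, and ChIP for H1 in 3 Control-KD libraries and 1 library each of Piwi-KD, Mael-KD and HP1a-KD. Sonicated input DNA was sequenced in 7 libraries. ATAC-seq had 2 samples per condition, but the table gives 1 column for each condition, and only the input and H1 ChIP controls had separate replicate columns. Every other comparison therefore sets 1 column against 1 column and carries no p-value. Libraries held 20625614 to 25544579 reads of RNA, 6973985 to 7397276 of small RNA, 3381967 to 5674137 of ATAC and 1560307 to 4266312 of ChIP or input, as deduced from the tables. The depletion of each target was not checked, as its RNA was not analysed here.

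LTR retrotransposons copy themselves through an RNA that is transcribed from one long terminal repeat and reverse transcribed. In ovarian somatic cells Piwi, guided by small RNAs called piRNAs, binds nascent transposon RNA, and its targets acquire H3K9me3, which HP1a binds. Maelstrom is required for this transcriptional silencing, and linker histone H1 binds nucleosomes and the DNA between them and compacts chromatin. The study's title names H1 as one of the factors through which Piwi acts on chromatin accessibility, and the comparisons ask how each readout of a transposon differs once one of these proteins is depleted.

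The 5 members differed widely in how much DNA they contribute to these cells. Mean input signal in the 3 control libraries, in RPKM (reads scaled by consensus length and library depth), was 155.6 ± 12.5 (SD, n = 3) for INVADER2, 79.0 ± 1.93 for INVADER3, 64.1 ± 8.92 for INVADER4, 23.5 ± 2.23 for INVADER6 and 1.14 ± 0.335 for INVADER5. The ranges of neighbouring members in this order did not overlap in the controls, from 141.2 to 162.9 RPKM for INVADER2 down to 0.911 to 1.52 for INVADER5. The gene name table lists 24 named insertions of INVADER2, 37 of INVADER3, 33 of INVADER4, 8 of INVADER6 and 3 of INVADER5, so the order by named insertions differs from the order by DNA signal among the first 3. INVADER5 was so scarce that it lay among the lowest 25% of transposons in every assay. It was therefore left out of every count below, which rest on 96 kept of 129 transposons and 4 kept of the 5 members.

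**Figure D1:**
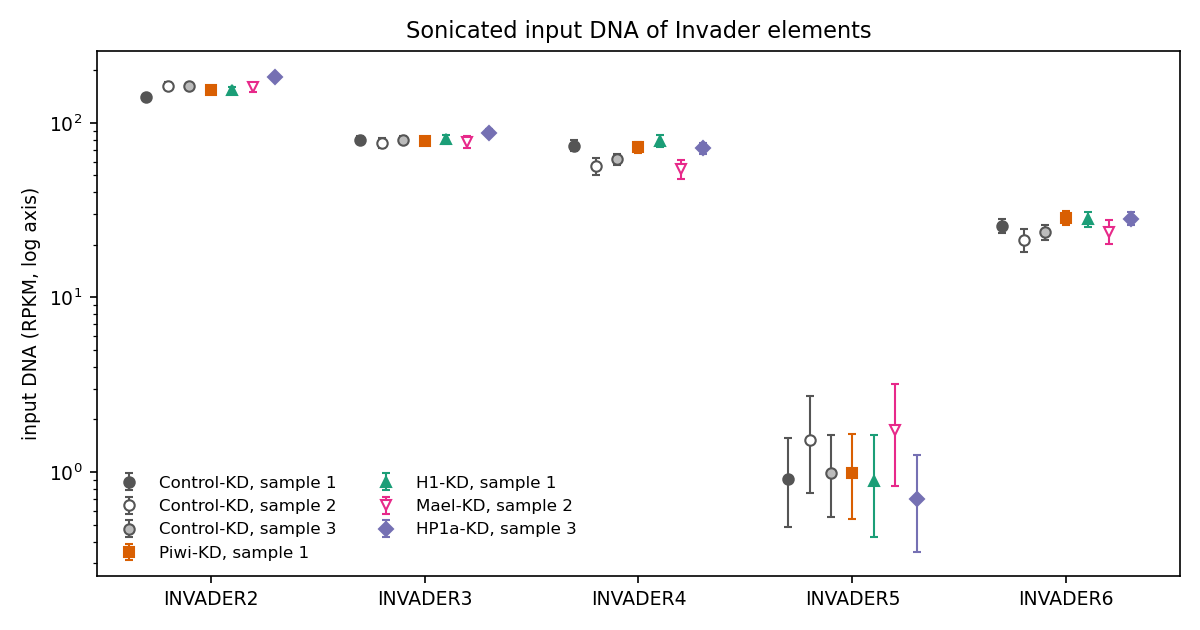
Input DNA in RPKM on a log axis for the 5 Invader elements in 7 libraries, with 95% Poisson counting intervals; colours and symbols give the knockdown, and open symbols mark sample 2. INVADER2 sits at 141.2 to 182.9 RPKM and INVADER5 at 0.699 to 1.74, and only INVADER3 and INVADER4 come close to each other.

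INVADER4 input was lowest in the libraries numbered sample 2. In sample 1 it was 73.9 RPKM in Control-KD, 72.4 in Piwi-KD and 78.7 in H1-KD. In sample 2 it was 56.4 in Control-KD and 54.1 in Mael-KD, and in sample 3 it was 62.0 in Control-KD and 71.4 in HP1a-KD. For each ChIP value below, the input library with its own knockdown and number was the divisor.

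INVADER4 carried most of the RNA of the 5 members. In Control-KD its level was 129.3 RPKM, rank 7 of the 129 transposons, against 5.88 for INVADER6, 4.94 for INVADER2, 3.03 for INVADER3 and 0.0222 for INVADER5, which rested on 2 reads. The 95% counting intervals of INVADER6 (5.44 to 6.36 RPKM) and INVADER2 (4.55 to 5.36) did not overlap. INVADER4 thus held 84.3% of the RNA reads of the 5 members. INVADER1, outside the 5 and not in this share, was at 36.9 RPKM, above every member but INVADER4. Set against its DNA, INVADER4 RNA was 2.02 times its input level, while INVADER6 stood at 0.25, INVADER3 at 0.0384 and INVADER2 at 0.0318.

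Depletion of Piwi left the kept members within 2-fold of the control in RNA. INVADER4 was at 182.6 RPKM, a ratio to control of 1.41 (95% counting interval 1.37 to 1.45). The others were lower than in the control, INVADER6 at 4.86 RPKM with a ratio of 0.825 (0.730 to 0.933), INVADER2 at 4.06 with a ratio of 0.822 (0.722 to 0.934) and INVADER3 at 2.23 with a ratio of 0.733 (0.621 to 0.864). RPKM is relative to a column total deduced here, and transposons held 14.89% of RNA reads in Control-KD, 25.9% in Piwi-KD and 26.9% in H1-KD. How far RNA ratios to control, above or below 1, go with this shift was not tested. INVADER5 had 0 reads, which allows a level of up to 0.0395 RPKM at 3 counts. On the log2 scale with a pseudocount of 0.553 RPKM, which is used for all counts of RNA changes, the values were 0.50 for INVADER4, -0.25 for INVADER2 and INVADER6 and -0.37 for INVADER3. None of the 4 kept members passed 2-fold in either direction, whereas of the 96 kept transposons 24% passed that fold upward and 3.12% downward. The median over all kept transposons was 0.11. For context, a list of 42 other entries of the Ty3/gypsy group, to which Invader elements belong, was used. It is partial and leaves out INVADER1, NOMAD, BLASTOPIA and QUASIMODO2. Of its members 14 of 31 kept passed 2-fold upward and 0 downward (median 0.76). In bulk samples, fewer cells of a kind and less RNA per cell cannot be told apart.

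Depletion of H1 was accompanied by higher RNA of every kept member, and by far the most for INVADER3. INVADER3 went from 3.03 RPKM in Control-KD to 53.5 in H1-KD, from 384 to 7090 reads, a ratio of 17.6 (15.9 to 19.6). INVADER2 went from 4.94 to 32.9 RPKM, a ratio of 6.65 (6.10 to 7.27). INVADER4, already abundant, went from 129.3 to 304.1 RPKM, a ratio of 2.35 (2.29 to 2.41). INVADER6 went from 5.88 to 8.86 RPKM, a ratio of 1.51 (1.36 to 1.67). INVADER5 had 8 reads against 2, and the interval of its ratio, 0.763 to 36.9, holds 1. None of these intervals covers the spread between cultures, which was not measured for RNA.

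These differences have to be read against a table that was higher throughout. The median transposon was at a log2 change of 1.19 in H1-KD, and 58.3% of the kept transposons were at least 2-fold higher, so the 3 of 4 members past 2-fold (INVADER3 at 3.91, INVADER2 at 2.61, INVADER4 at 1.23; INVADER6 was at 0.55) are not by their number set apart from the rest. On the partial Ty3/gypsy list 18 of 31 were at least 2-fold higher, with a median of 1.25. INVADER3 had the rank 5 among the 96 kept transposons. Relative to the median transposon the log2 changes were 2.72 for INVADER3, 1.41 for INVADER2, 0.04 for INVADER4 and -0.64 for INVADER6, so the direction of INVADER6 turned and INVADER4 stood at the median. Centring in this way put 24 transposons past 2-fold upward and 11 downward, against 56 and 0 without it. INVADER1 was at 36.9 RPKM in Control-KD and 36.2 in H1-KD, so it was not higher in H1-KD as INVADER2 and INVADER3 were.

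Within the 5 members, the balance of RNA shifted with H1-KD. INVADER4 held 84.3% of the 5 members' RNA reads in Control-KD, 90.5% in Piwi-KD and 63.7% in H1-KD, while INVADER3 went from 3.72% in Control-KD to 21.1% in H1-KD. H1-KD and Piwi-KD share the control column, and set directly against each other H1-KD was higher for all 4 kept members. The log2 differences were 4.28 for INVADER3, 2.86 for INVADER2, 0.80 for INVADER6 and 0.73 for INVADER4. The 2 largest passed 2-fold, beside 37.5% of kept transposons, and the median of all kept transposons was 0.73. Centred on that median, 25 transposons were past 2-fold upward and 17 downward, against 36 and 12. INVADER3 stood 24.1 times (21.1 to 27.5) and INVADER2 8.10 times (7.31 to 8.99) above its Piwi-KD level.

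**Figure D2:**
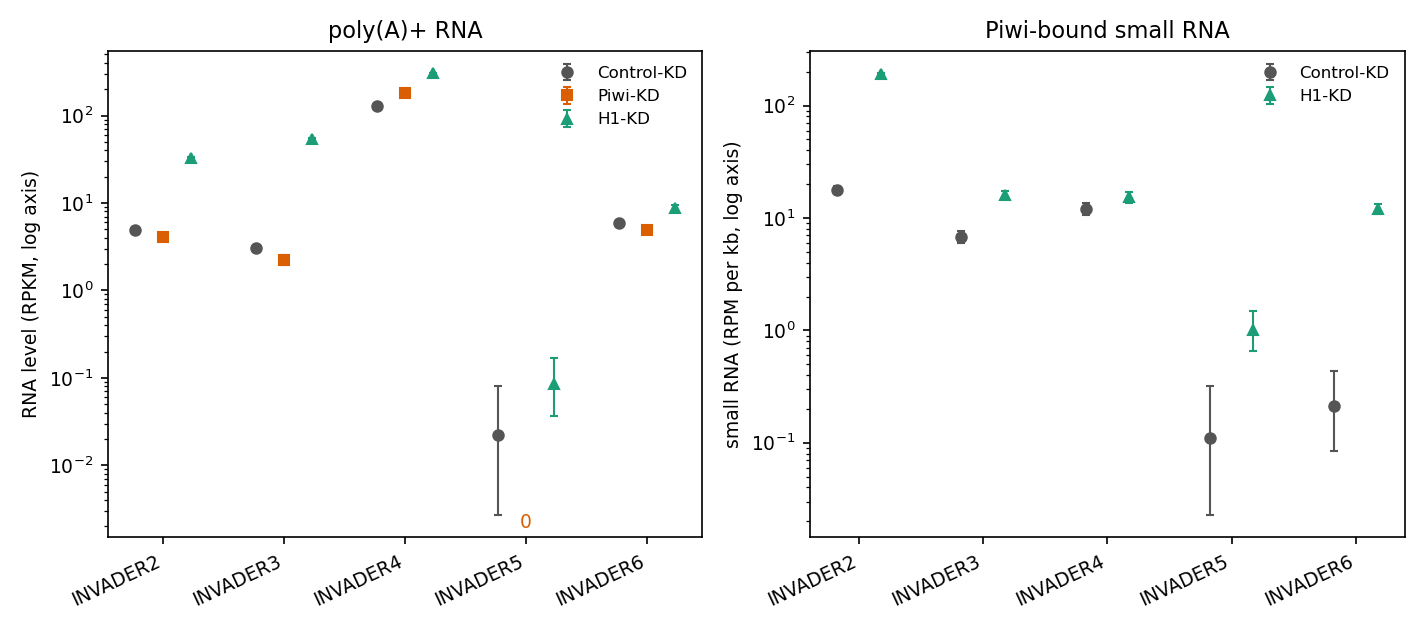
Poly(A)+ RNA in RPKM (left) and Piwi-bound small RNA in RPM per kilobase (right), both on log axes, for the 5 Invader elements by knockdown, 1 library per point, with 95% Poisson counting intervals; a printed 0 marks no reads. INVADER3 shows the widest gap between H1-KD and Control-KD in RNA (3.03 to 53.5 RPKM) and INVADER6 in small RNA (0.211, from 7 reads, to 12.0).

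Small RNA bound to Piwi followed a different order. Per kilobase of consensus, the level in RPM (reads scaled by library depth) in Control-KD was 17.9 for INVADER2, 12.1 for INVADER4, 6.78 for INVADER3, 0.211 for INVADER6 and 0.110 for INVADER5. The last pair rested on 7 and 3 reads. INVADER4, with the most RNA, thus had less small RNA per kilobase than INVADER2, and INVADER6, with more RNA than INVADER2 or INVADER3, had next to none. Set against input DNA the order differed, and INVADER4 had the most small RNA per kilobase of the 4 kept members. These ratios were 0.188 for INVADER4, 0.115 for INVADER2, 0.0858 for INVADER3 and 0.00896 for INVADER6.

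In H1-KD the 4 kept members had more Piwi-bound small RNA, beside 59.4% of the kept transposons, and INVADER2 dominated. INVADER2 went from 86.8 to 927.2 RPM, from 642 to 6466 reads, a ratio of 10.7 (9.85 to 11.6). INVADER6 went from 0.946 to 53.9 RPM, from 7 to 376 reads, a ratio of 57.0 whose interval of 27.4 to 142.7 reflects the few control reads. INVADER3 went from 35.1 to 82.6 RPM, a ratio of 2.35 (2.03 to 2.73), and INVADER4 from 33.3 to 42.2 RPM, a ratio of 1.27 (1.07 to 1.51). INVADER5 had 26 reads against 3, a ratio of 9.19 (2.82 to 47.5). With a pseudocount of 8.10 RPM the log2 changes were 3.30 for INVADER2, 2.78 for INVADER6, 1.07 for INVADER3 and 0.28 for INVADER4. For INVADER6 this value depends on the pseudocount, which is 0.1 of the median value of the table: it was 1.19 at 0.5 of that median and 4.44 at 0.02 of it. INVADER6 was among the lowest 25% in the control and was kept only through its H1-KD level, so it had to differ, and its value is a description. By the filter on both columns 3 of 4 members were at least 2-fold higher, beside 33.3% of the kept transposons, and the median transposon was at 0.27. With the filter applied to the control column alone, an alternative chosen after seeing the data, INVADER6 dropped out as INVADER5 did, and 2 of 3 members passed beside 30.2% of transposons. With centring 23 transposons passed upward and 3 downward, against 32 and 0 without it. The 2 members that then passed were INVADER2 at 3.03 and INVADER6 at 2.51, and INVADER6 had to differ for the reason given above. INVADER3 did not pass with centring (0.80) or with the pseudocount at 0.5 of the median (0.70). The partial Ty3/gypsy list had 7 of 35 at least 2-fold higher and a median of -0.31. INVADER2 made up 55.4% of the 5 members' small RNA reads in Control-KD and 83.6% in H1-KD.

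The members therefore ranked differently in RNA and in small RNA of H1-KD. INVADER3 had the largest RNA ratio (17.6) and a modest small RNA ratio (2.35). INVADER2 was high in both (6.65 in RNA and 10.7 in small RNA). INVADER4 had the smallest small RNA ratio of the 5 (1.27). INVADER6, with 7 small RNA reads in the control, is left out of this order. The RNA and small RNA libraries were separate, with 1 of each kind per condition, so this order has no replicate.

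Chromatin accessibility set INVADER4 and INVADER2 apart from INVADER3 and INVADER6 once HP1a was depleted. INVADER4 had an ATAC level of 119.5 RPKM in Control-KD, 110.8 in Piwi-KD, 187.6 in H1-KD, 145.0 in Mael-KD and 369.6 in HP1a-KD. INVADER2 was at 103.3, 77.4, 104.0, 84.1 and 224.3 RPKM in the same order. Both were highest in HP1a-KD, with a ratio to control of 3.09 (2.90 to 3.30) for INVADER4 and 2.17 (2.06 to 2.29) for INVADER2. INVADER3 was at 48.6, 35.6, 59.8, 34.9 and 52.8 RPKM, and INVADER6 at 24.8, 15.6, 25.2, 17.0 and 27.8. Their HP1a-KD ratios, 1.09 (0.997 to 1.19) for INVADER3 and 1.12 (0.985 to 1.28) for INVADER6, have counting intervals that hold 1. INVADER5 had 35 to 106 reads and a ratio of 2.06 (1.39 to 3.11) in HP1a-KD and 1.78 (1.20 to 2.71) in H1-KD.

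**Figure D3:**
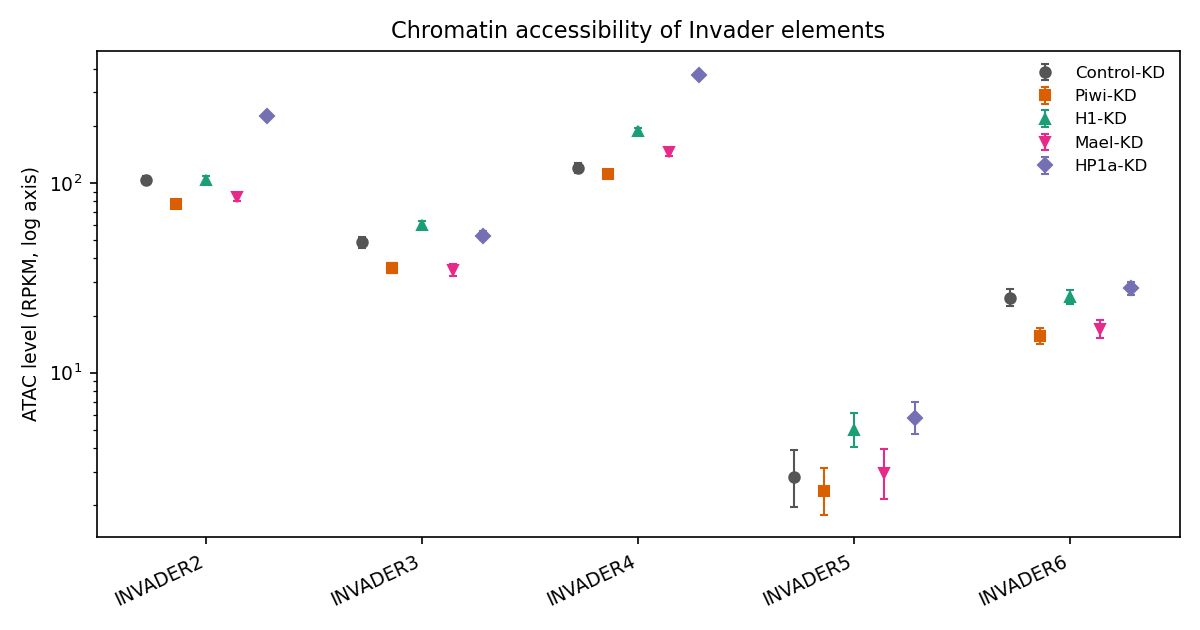
ATAC level in RPKM on a log axis for the 5 Invader elements in 5 conditions, 1 deposited column per condition, with 95% Poisson counting intervals that do not include the spread between samples. INVADER4 and INVADER2 stand highest in HP1a-KD at 369.6 and 224.3 RPKM, while INVADER3 and INVADER6 are close to their control levels there.

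On the log2 scale with a pseudocount of 5.80 RPKM, 2 of the 4 kept members were at least 1.5-fold more accessible in HP1a-KD, INVADER4 at 1.58 and INVADER2 at 1.08, with INVADER6 at 0.13 and INVADER3 at 0.11. The share over all kept transposons was 31.2% and the median 0.21, and relative to that median INVADER3 and INVADER6 turned to -0.11 and -0.08. With centring 22 transposons were higher and 4 lower in HP1a-KD, against 30 and 0 without it. Of the partial Ty3/gypsy list 21 of 34 were higher, with a median of 0.76. In H1-KD only INVADER4 passed 1.5-fold, at 0.63, beside 12.5% of kept transposons. INVADER3 was at 0.27, INVADER6 at 0.02 and INVADER2 at 0.01, and the median transposon was at -0.08. The INVADER4 value lay just past the threshold and fell short of it once ATAC was divided by input.

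In Piwi-KD and Mael-KD no member passed 1.5-fold with the pseudocount used. INVADER6 in Piwi-KD came closest, with a ratio without pseudocount of 0.629 (0.545 to 0.726), and it passed downward with a pseudocount of 0.02 of the median (-0.63) and after division by input (-0.64). The Piwi-KD values were -0.10 for INVADER4, -0.39 for INVADER2 and INVADER3 and -0.52 for INVADER6, where the median transposon was at -0.32, 11.5% of transposons were higher and 2.08% lower. With centring 14 transposons were higher and 0 lower, against 11 and 2 without it. INVADER4 then turned to 0.22, INVADER2 and INVADER3 were at -0.07 and INVADER6 at -0.20. RPKM is relative to a column total deduced here. Transposons held 11.2% of ATAC reads in Control-KD, 25.58% in Piwi-KD, 20.74% in Mael-KD, 15.42% in H1-KD and 19.05% in HP1a-KD. How far the ATAC changes, higher or lower, go with this shift was not tested. The Mael-KD values were 0.27 for INVADER4, -0.28 for INVADER2, -0.42 for INVADER3 and -0.43 for INVADER6, where the median was -0.23, 8.33% of transposons were higher and 2.08% lower. With centring 11 were higher and 0 lower in Mael-KD, against 8 and 2. INVADER4 was then at 0.50, INVADER2 at -0.05, INVADER3 at -0.19 and INVADER6 at -0.20. INVADER4 was thus above the median transposon in all 4 knockdowns. Each of these ratios has the same single Control-KD column as its divisor, so they are not 4 independent observations. INVADER1 was likewise above the median transposon every time, by log2 values between 0.04 and 0.24.

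Contrasts between pairs of knockdowns reuse the same 4 ATAC columns. HP1a-KD exceeded H1-KD by 1.07 for INVADER2 and 0.96 for INVADER4 on the log2 scale, while INVADER6 differed by 0.12 and INVADER3 by -0.16, so 2 of 4 members passed 1.5-fold beside 25% of kept transposons. Against Mael-KD the same 2 members passed, beside 31.2%. Against Piwi-KD 3 members passed, INVADER6 in addition, beside 35.4%. H1-KD exceeded Mael-KD by 1.5-fold for INVADER3 alone, beside 6.25% of kept transposons, and exceeded Piwi-KD for INVADER3 and INVADER4, beside 11.5%. Between Mael-KD and Piwi-KD no member passed, beside 1.04% of transposons higher and 7.29% lower in Mael-KD. Relative to the median transposon, the transposons past 1.5-fold upward and downward were 13 and 6 in place of 24 and 2 for HP1a-KD against H1-KD, 14 and 4 in place of 30 and 2 against Mael-KD, and 15 and 9 in place of 34 and 4 against Piwi-KD. For H1-KD they were 3 and 3 in place of 6 and 3 against Mael-KD, and 5 and 11 in place of 11 and 9 against Piwi-KD.

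Accessibility was also unequal per DNA. ATAC over the mean control input was 1.86 for INVADER4, 1.06 for INVADER6, 0.664 for INVADER2 and 0.615 for INVADER3 in Control-KD. In HP1a-KD, over the input of that knockdown, it was 5.18 for INVADER4 and 1.23 for INVADER2, with 0.985 for INVADER6 and 0.603 for INVADER3. INVADER4 was therefore the member with both the most RNA and the most ATAC signal per DNA among the 4 kept.

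H1 occupancy, measured as H1 ChIP over input, was close to uniform over the members in control cells. The 3 control libraries gave 1.51, 1.14 and 1.23 for INVADER2, which is 1.29 ± 0.189 (SD, n = 3). They gave 1.37, 1.24 and 1.31 for INVADER3 (1.30 ± 0.0655), 1.30, 1.27 and 1.27 for INVADER4 (1.28 ± 0.0195) and 1.40, 1.45 and 1.32 for INVADER6 (1.39 ± 0.0628). The ranges of these 4 members overlapped with one another except that those of INVADER4 and INVADER6 did not. INVADER5, at 1.47, 0.985 and 1.55, varied most. The median transposon stood at 1.30, 1.14 and 1.18 in the same libraries.

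H1 signal on INVADER4 fell in HP1a-KD. Its H1 over input was 0.782 in HP1a-KD, below all 3 controls and below 1, while INVADER3 was at 1.09, INVADER6 at 1.06 and INVADER2 at 1.03, each also below its 3 controls. The whole library was lower, with the median transposon at 1.05 against 1.30, 1.14 and 1.18 in the controls. Of the 96 transposons, 80 were below the mean of their controls on the log2 scale. In a limma fit over 96 transposons and 6 libraries, the log2 difference of INVADER4 from the controls was -0.67 with a standard error of 0.19 (adjusted p = 0.0162, limma), the rank 3 from the lowest among 96. INVADER6 at -0.35 (limma, adjusted p = 0.484), INVADER2 at -0.31 (0.521) and INVADER3 at -0.25 (0.675) did not pass an adjusted p of 0.05. The median transposon was at -0.14, and 3.12% of the 96 were called lower and 1.04% higher. The call of INVADER4 did not hold when each library was centred on its median transposon (-0.49, limma, adjusted p = 0.161), when the ChIP was not divided by input (-0.52, 0.999), without control 2 (-0.68, 0.0744) or without control 3 (-0.68, 0.161). It held without control 1 (-0.65, limma, adjusted p = 0.0442). The 1 HP1a-KD library has no replicate, and the fit assumes that it varies like the controls. Its calls rest on a spread pooled over all 96 transposons of the same 3 control libraries. HP1a-KD was also the condition with the highest ATAC level of INVADER4, and both values rest on the same element in single columns.

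In Piwi-KD and Mael-KD no member was called. H1 over input in Piwi-KD was 1.47 for INVADER2, 1.45 for INVADER3, 1.37 for INVADER6 and 1.33 for INVADER4, and the log2 differences ran from 0.02 to 0.20 with adjusted p of 0.676 to 0.966 in limma. For comparison, 3.12% of the 96 transposons were called lower and 2.08% higher in Piwi-KD. In Mael-KD the members were at 1.30 for INVADER4, 1.23 for INVADER2, 1.19 for INVADER3 and 1.15 for INVADER6, with log2 differences from -0.25 to 0.01 and adjusted p of 0.864 to 0.990 in limma, where 1.04% of transposons were called lower and 0% higher. The standard error shared by all transposons was 0.195 on the log2 scale, and against this pooled spread no member was called. The members' own control SDs were 0.205 for INVADER2, 0.078 for INVADER3, 0.034 for INVADER4 and 0.068 for INVADER6. In Piwi-KD INVADER3 and INVADER4 lay above their 3 controls, and INVADER2 and INVADER6 within them. In Mael-KD INVADER3 and INVADER6 lay below, and INVADER2 and INVADER4 within. The median transposon was at 1.34 in Piwi-KD and 1.11 in Mael-KD, against 1.30, 1.14 and 1.18 in the controls.

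**Figure D4:**
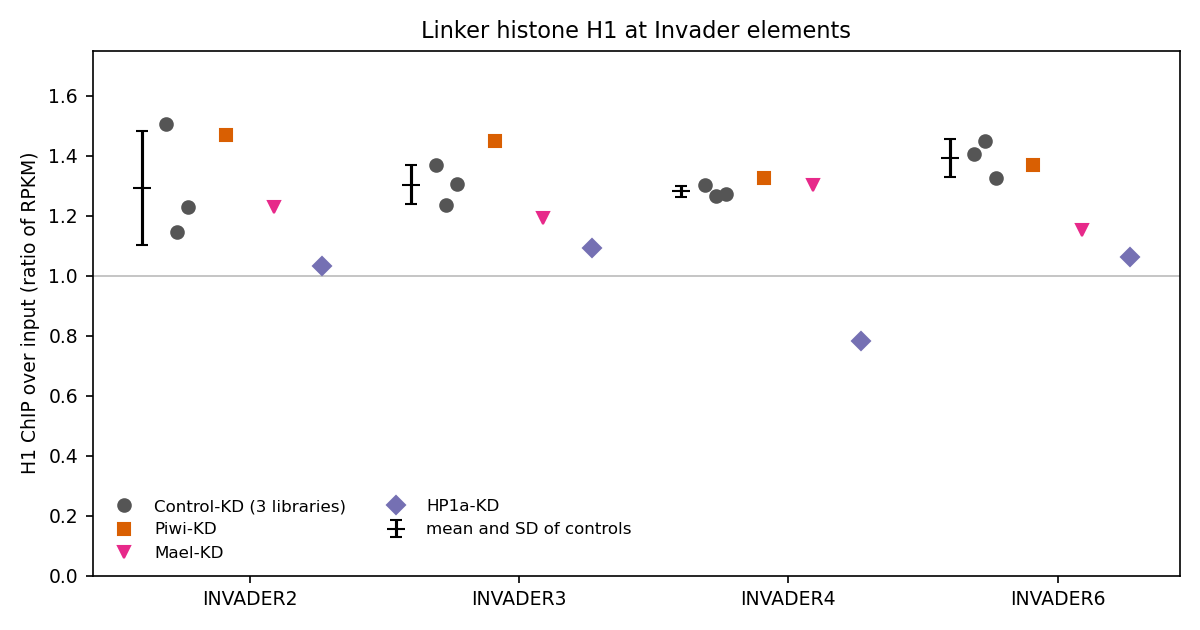
H1 ChIP over input (ratio of RPKM) for the 4 kept Invader elements in 6 libraries, with the mean and SD of the 3 controls in black and a line at 1. INVADER4 in HP1a-KD, at 0.782, is the only point below 1.

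H3K9me3 was alike among the members, and none passed 1.5-fold in either knockdown. H3K9me3 over input in Control-KD was 2.72 for INVADER3, 2.70 for INVADER2, 2.58 for INVADER5, 2.48 for INVADER6 and 2.47 for INVADER4, where the median transposon was at 2.73. In Piwi-KD it was 3.56 for INVADER3, 3.25 for INVADER4, 3.06 for INVADER2, 2.82 for INVADER6 and 2.40 for INVADER5, with the median at 3.15. The log2 changes of the kept members were 0.37 for INVADER3 and INVADER4, 0.18 for INVADER2 and 0.16 for INVADER6. Since the median transposon was at 0.32, INVADER2 and INVADER6 were below it by 0.14 and 0.16 and INVADER3 and INVADER4 above it by 0.05 and 0.06. No member passed 1.5-fold, where 13.5% of transposons were higher and 13.5% lower, and 1 higher and 14 lower once centred. Of 38 kept entries on the partial Ty3/gypsy list 3 passed upward and 10 downward (median 0.08).

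In H1-KD H3K9me3 of INVADER2 went from 2.70 to 2.18, a ratio of 0.806 (0.751 to 0.865), or -0.30 on the log2 scale. The lower value was not particular to INVADER2, since the H3K9me3 ratio of INVADER1 was 0.781 (0.715 to 0.852). The small RNA ratio of INVADER1 in H1-KD was 1.43, against 10.7 for INVADER2. H3K9me3 over input in H1-KD was 2.87 for INVADER3, 2.64 for INVADER6, 2.54 for INVADER4 and 2.25 for INVADER5. The counting intervals of their ratios to control hold 1. INVADER3, with the largest RNA difference in H1-KD, thus had an H3K9me3 ratio of 1.05 (0.962 to 1.15). None of the 4 kept members passed 1.5-fold, where 2.08% of transposons were higher and 6.25% lower. On the partial Ty3/gypsy list, 1 of 38 was higher and 4 were lower.

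HP1a over input in Control-KD was 1.86 for INVADER4, 1.83 for INVADER2, 1.72 for INVADER3 and 1.61 for INVADER6, against 1.81 for the median transposon. In Piwi-KD these were 1.97, 1.91, 1.94 and 1.71 in the same order, and in H1-KD 1.85, 1.85, 2.08 and 2.0. The largest ratios to control were those of INVADER6 at 1.24 (1.04 to 1.48) and INVADER3 at 1.21 (1.10 to 1.33) in H1-KD, equal to log2 changes of 0.27 and 0.26 with pseudocounts, beside a median of 0.12. No member passed 1.5-fold, where 2.08% of transposons were higher and 6.25% lower in Piwi-KD, and 0% higher and 2.08% lower in H1-KD.

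**Figure D5:**
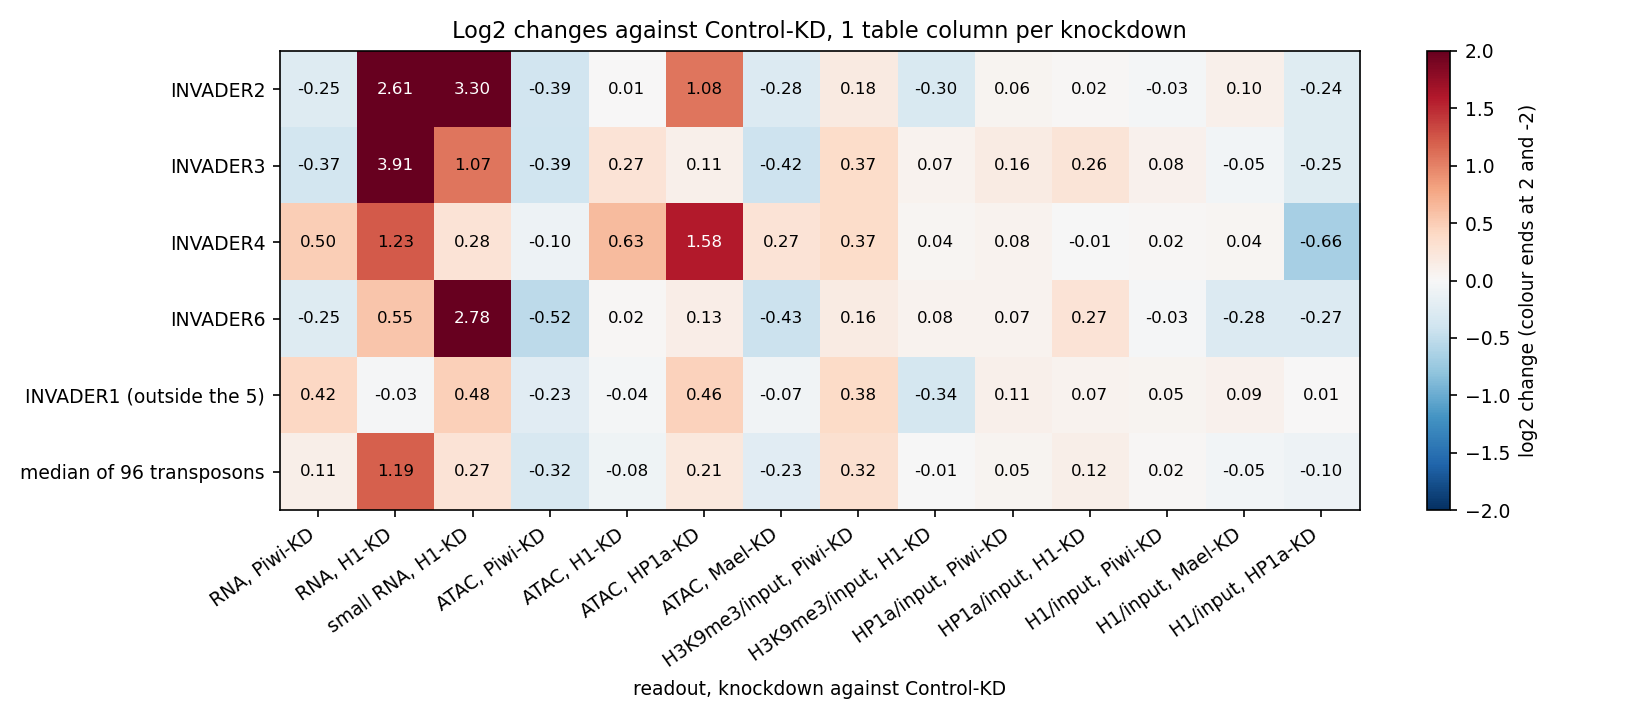
Log2 changes against Control-KD for the 4 kept Invader elements, INVADER1 and the median of 96 kept transposons (rows) in 14 comparisons (columns), 1 table column per knockdown; the H1 values use the control of the same sample number. Red is higher and blue lower, with colour ending at 2 and -2, and the largest values are RNA of INVADER3 (3.91) and small RNA of INVADER2 (3.30) in H1-KD.

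Across all 14 comparisons with the control, no kept member had another Invader element among its 2 nearest transposons. Likeness was measured over the 69 transposons kept in every table as the root mean square difference of the log2 changes, each divided by the interquartile range of its comparison, so that a lower value means a more similar pattern. The comparisons share control columns, so this is a description. Invader entries were few among the 68 others compared with each member, namely the rest of the 4 kept members and INVADER1. Their absence among the 2 nearest is therefore no sign that the members are unlike one another. INVADER3 was nearest to ACCORD, a Ty3/gypsy-type element, at 0.469 and to MAX, a BEL/Pao-type element, at 0.502, where its median distance to the others was 0.906. INVADER2 was nearest to DM1731, a copia-type element, at 0.591 and to Bica at 0.603 (median 0.992). INVADER6, kept in the small RNA table only through H1-KD, was nearest to the same pair, at 0.564 for Bica and 0.599 for DM1731 (median 0.963). INVADER4 had no neighbour as near, with PROTOP_A, a DNA transposon, at 0.713 and ZAM, a Ty3/gypsy endogenous retrovirus, at 0.921 (median 1.31).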

How the data were processed

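The 5 Invader entries were read from 11 deposited tables, which give each transposon consensus a value in every column. Groups (assay and knockdown) come from the sample titles. The authors deposited RNA, ATAC, ChIP and input values as RPKM and small RNA values as RPM. No label or header names these units, which were deduced: a whole-number length for each consensus and a total for each column turned values into whole reads, to within 0.05, for 3606 of 3606 nonzero values, with lengths for 128 of 129 entries. Lengths of the members came out at 4858 bp for INVADER2, 5186 for INVADER3, 2759 for INVADER4, 3685 for INVADER5 and 4492 for INVADER6. On simulated data, 29 of 29 totals and 114 of 128 lengths came back, and 4 of the 5 members' lengths, so read numbers are estimates. Per the submitters' processing notes, cutadapt was used throughout on build dm3, together with TopHat2 2.0.7, Bowtie2 2.0.6 and Cufflinks 2.1.1 for RNA, Bowtie 1.0.1 for ChIP, input and small RNA, and MACS2 for ATAC. How reads matching several entries were counted, whether ATAC reads were shifted, and whether each ATAC column pools its 2 samples are points not given in the sources used here.

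Changes were log2((knockdown + p)/(control + p)), where p was 0.1 of the table's median over nonzero values, which understates changes of low transposons. ChIP was first divided by its own input library. The 25% lowest by their mean over all columns of each table were left out, which are 33 of 129 transposons. This mean includes the knockdowns, so a transposon can be kept through a high knockdown value, as INVADER6 was for small RNA. Thresholds were 2-fold for RNA and small RNA and 1.5-fold for ATAC and ChIP. The 95% counting intervals refer to ratios without pseudocount. For 2 libraries they are exact by Clopper-Pearson, and for ChIP over input they use a normal approximation of the log ratio. They cover counting error only, since no molecular identifiers mark PCR copies. For H1, log2 ChIP over input was modelled in limma 3.58.1 under R 4.3.3 (96 transposons, 6 libraries, 2 residual degrees of freedom), with Benjamini-Hochberg adjustment. On simulated H1 data for HP1a-KD it called 12 of 16 transposons with a 2-fold change and 0 of 80 unchanged ones. That simulation drew independent noise for each transposon. It held no shift of a whole library like the lower HP1a-KD median, so it does not cover false calls from such a shift. The labels do not say that control libraries came from separate cultures, so their spread may be technical. A test over 10 ATAC samples was foreseen, and with 1 column per condition the rule for data without replicates took its place.

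All 5 members are described, and for each kept member the 2 transposons with the most similar pattern are named. INVADER1 was added after its values were seen. The members and lists were chosen with earlier results of these data known. Other pseudocounts, no filter, centring on the median transposon, no input or division of ATAC by input, and leaving out each H1 control were tried. ATAC between knockdowns under these settings, and a filter on the control column alone, were added after seeing the data.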

Additional observations from a re-analysis of the deposited data

How the results depend on the processing

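Counts of members past the threshold for RNA, small RNA, H3K9me3 and HP1a stayed within 1.5 times the stated count under each alternative tried. The cause of the differences below was not tested. For ATAC, Piwi-KD had 1 member (INVADER6, lower) past 1.5-fold in place of 0 with the pseudocount at 0.02 of the median and after division by input. H1-KD had 0 in place of 1 with the pseudocount at 0.5 of the median and after division by input. Among the ATAC contrasts between knockdowns, H1-KD against Mael-KD had 0 in place of 1 with the pseudocount at 0.5 and with centring, H1-KD against Piwi-KD had 1 and 0 in place of 2 under the same settings, and Mael-KD against Piwi-KD had 1 in place of 0 after division by input. For H1 in HP1a-KD the count of called members was 0 in place of 1 with centring and without input, and between 0 and 1 when each control was left out.

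H1 values of members without a call changed sign. In Piwi-KD, INVADER6 was at -0.013 with the pseudocount at 0.02, at -0.14 with centring and between -0.022 and 0.041 when each control was left out, and with centring INVADER3 was at -0.0046 and INVADER4 at -0.099. In Mael-KD, INVADER4 was at -0.016 with the pseudocount at 0.5 and -0.21 without input, and INVADER2 at 0.045 with centring and between -0.15 and 0.050 when each control was left out. With the control of the same sample number as a replicate block, INVADER4 in HP1a-KD was at -0.66. This block leaves no residual degrees of freedom and so gives no test, and with 1 pair per knockdown the pairing could not be checked. INVADER5 is limited by depth, with 0 to 8 RNA reads.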
